A study of Bos taurus with 38 samples.

Results

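ANKRD1 (ENSBTAG00000011734) and NR4A3 (ENSBTAG00000001864) were 2 of the 27607 genes counted in longissimus dorsi (LD) muscle of newborn beef calves, and they are described here across 38 calves. They were chosen by name, on results of the same group contrasts: the difference between group means of variance-stabilized values (VST, a log-like scale of counts from DESeq2), divided by its SD over genes, placed both above most genes in each treated group. For ANKRD1 this standardized difference was 1.61, 2.62 and 3.41 in TR1, TR2 and TR3 vs. CTR, and for NR4A3 it was 3.23, 2.18 and 1.61. Because these contrasts chose the genes, their differences between treatment groups are given as a description, with no test.

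The calves were born to Angus-cross dams that had calved before. CTR dams (10 calves, 4 females) received no bolus. Dams of TR1 (9 calves, 2 females), TR2 (10 calves, 3 females) and TR3 (9 calves, 5 females) were given selenium-enriched yeast by bolus, 105 mg Se per week over 13 weeks, in the trimester their name gives (trimester 1, 2 or 3 of gestation). Every dam, CTR included, had access to a mineral mix with Na selenite, so the groups differ in added organic Se and not in the presence of Se. Dam age was 6 to 9 years in CTR, 5 to 9 in TR1 and TR2, and 5 to 8 in TR3. Before the biopsy the authors injected lidocaine with epinephrine under the skin at the site. Each library came from 1 needle biopsy of 1 calf, taken shortly after birth. In such bulk tissue, fewer cells of a type and less RNA per cell cannot be told apart.

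ANKRD1 encodes a muscle ankyrin repeat protein (MARP, also called CARP) that binds the elastic part of titin in the sarcomere and also enters the nucleus. It is best known from heart, and in skeletal muscle it is induced by stretch, injury, denervation and unaccustomed loading, in part through the co-activator YAP and its TEAD partners. NR4A3 (NOR1) is an orphan nuclear receptor. Like its relatives NR4A1 and NR4A2 it is an immediate early gene, transcribed briefly after cAMP and beta-adrenergic signals, and in muscle it is known for its rise after exercise. Single calves were extreme in both genes, so every group is given with its mean, its median and its spread over calves. Levels are CPM, the counts of a gene scaled to a common library size, after TMM normalization.

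Depth was even, with 12921223 to 17471666 counts per calf, and 12964 genes passed the filter on low counts. ANKRD1 was well covered in every calf, with 108 to 31187 counts (median 2845). NR4A3 was not: it had 0 to 343 counts (median 5), 5 calves had no count, 25 had fewer than 10, and 3 had 50 or more. A count of 3 corresponded to 0.158 to 0.237 CPM, taken here as the limit that a count of 0 allows. Differences in NR4A3 between calves at or below that limit were not detectable at this depth. Above it the exact Poisson intervals were still wide, at 0.231 to 1.05 CPM for the 8 counts of A2034. These limits cover counting error only. The 8 skeletal muscle markers summed to 44204 to 166048 CPM. ACTA1 had 8701 CPM or more in every calf, while MYH1 ranged from 615 to 38520 CPM. Neither gene closely followed total counts, the TMM factor or the share of the 10 largest genes (Spearman rho from -0.26 to 0.18, 38 calves).

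ANKRD1 spanned more than 2 orders of magnitude, and CTR held both ends of that range. In CTR it ranged from 7.23 CPM in A2034 through a median of 297 to 2445 CPM in A2088. In TR1 the lowest calf had 30.3 CPM, the median was 210 and the highest, A2047, had 655. In TR2 the values ran from 29.5 CPM over a median of 253 to 1175 CPM in A2023. A2068 and A2100, also TR2 calves, followed with 934 and 788 CPM. In TR3 the range was narrowest, from 87.3 CPM over a median of 211 to 542 CPM in A2074. All 4 groups overlapped between 87.3 and 542 CPM, the range of TR3, and CTR, TR1 and TR2 each reached beyond it at both ends. Only 5 of 10 calves in TR2 and 3 of 9 in each of TR1 and TR3 exceeded the median of CTR. Exact Poisson intervals on the counts were narrow, at 5.93 to 8.73 CPM for A2034 and 2417 to 2471 CPM for A2088.

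The mean of ANKRD1 in CTR rested on 1 calf. It was 448 ± 721 CPM (SD, n = 10), of which A2088 alone supplied 54.6% of the group's sum. Without A2088 it was 226 ± 173 CPM, and the next highest CTR calf was A2041 at 500 CPM. At the other end, A2034, A2038 and A2035 had 7.23, 23.4 and 30.9 CPM. All 3 are CTR males, and they were 3 of the 5 lowest calves in the study. The other means were 258 ± 183 CPM in TR1 (n = 9), 419 ± 412 in TR2 (n = 10) and 274 ± 176 in TR3 (n = 9). On the log2 scale the SD between calves was largest in CTR, at 2.48, followed by TR2 at 1.80, TR1 at 1.24 and TR3 at 1.00.

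The order of the groups for ANKRD1 therefore changed with the summary. By mean and by median it was CTR, TR2, TR3, TR1 from high to low. By the mean of log2 CPM it was TR2, TR3, TR1, CTR, since a log scale gives the 3 low CTR calves more weight and A2088 less. Without the highest calf of each group the means ran TR2, TR3, CTR, TR1, while the medians ran CTR, TR1, TR3, TR2. No neighbours in any of these orders were separated by more than their SD.

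**Figure D1:**
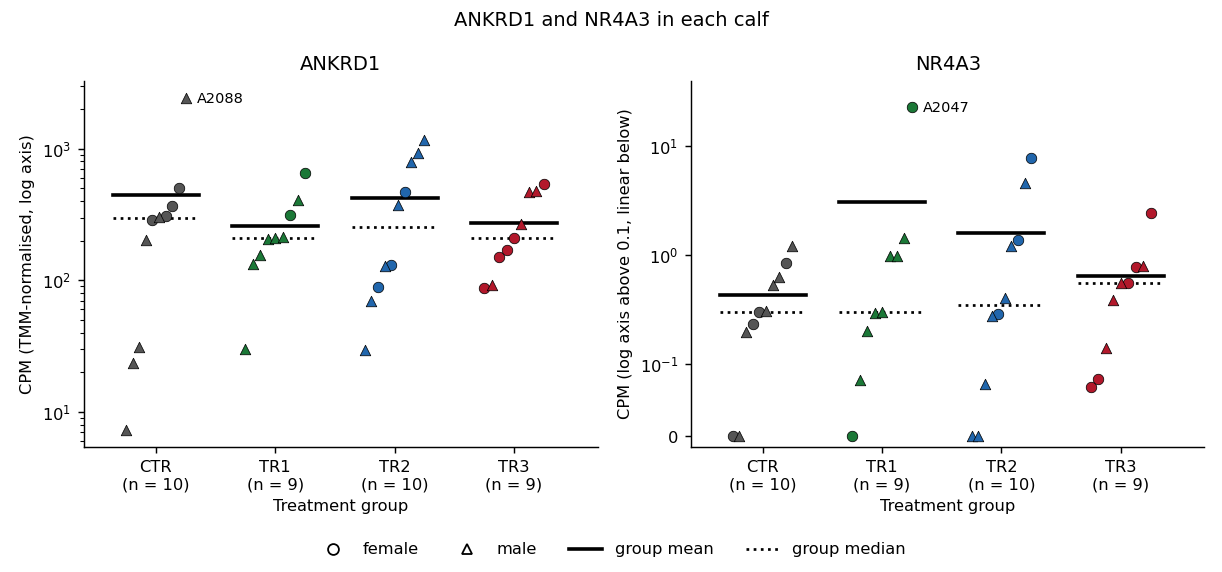
CPM of ANKRD1 (left, log axis) and NR4A3 (right, log axis above 0.1 CPM and linear below it) in each calf, by treatment group, with circles for females, triangles for males, a solid line for the group mean and a dotted line for the median. CTR holds the highest and the lowest ANKRD1 values, at 2445 and 7.23 CPM, and TR1 calf A2047 stands at 23.3 CPM of NR4A3 while 5 calves are at 0.

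NR4A3 was low in nearly all calves and high in a few. In CTR it ranged from 0 through a median of 0.301 to 1.22 CPM in A2096 (17 counts). In TR1 the range was 0 to 23.3 CPM with a median of 0.298, and the highest calf was A2047 with 343 counts. The exact Poisson interval for A2047 was 20.9 to 25.9 CPM. In TR2 it ran from 0 through a median of 0.345 to 7.80 CPM in A2054 (120 counts), and A2023 followed with 4.58 CPM (58 counts). In TR3 the lowest calf had 0.0683 CPM, the median was 0.550 and A2085 was highest at 2.42 CPM (33 counts). The groups overlapped, and the calves with 50 or more counts were A2047, A2054 and A2023.

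Group means of NR4A3 followed those few calves. CTR averaged 0.426 ± 0.386 CPM (SD, n = 10) and TR1 3.06 ± 7.60 (n = 9). TR2 averaged 1.60 ± 2.58 (n = 10) and TR3 0.642 ± 0.724 (n = 9). A2047 held 84.6% of the TR1 sum, and without it the TR1 mean was 0.532 ± 0.523 CPM. A2054 held 48.7% of the TR2 sum, and without it the TR2 mean was 0.912 ± 1.47 CPM. By mean the order was TR1, TR2, TR3, CTR, whereas by median it was TR3, TR2, CTR, TR1. The CTR median was exceeded by 4 of 9 TR1, 5 of 10 TR2 and 6 of 9 TR3 calves.

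The fitted differences from CTR carried the same dependence. The fit was edgeR's quasi-likelihood model with dam age, sex and group over all 38 calves. It called 0 of 12964 genes in TR1, TR2 or TR3 vs. CTR at an adjusted p of 0.05 (percent called 0 in each), and DESeq2 called 0, 1 and 0. At an unadjusted p under 0.05, edgeR had 331 genes for TR1 (2.55%), 1081 for TR2 (8.34%) and 175 for TR3 (1.35%). The 3 comparisons share the CTR calves, so they are not independent of each other.

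For ANKRD1 the fitted log2 fold change was -0.91 for TR1 (standard error, SE, 0.69), -0.19 for TR2 (SE 0.66) and -0.99 for TR3 (SE 0.73). Without A2088 these were 0.27, 1.03 and 0.07, and no other calf turned the sign of any of them when left out. The difference of mean log2 CPM was 0.29, 0.52 and 0.46, positive in each group, while the log2 ratio of medians was -0.50, -0.23 and -0.49. The fitted and the standardized values thus had opposite signs for the same counts.

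For NR4A3 the fitted log2 fold change was 2.01 for TR1 (SE 0.92), 1.79 for TR2 (SE 0.90) and -0.08 for TR3 (SE 1.09). Without A2047 the TR1 value was 0.28. In TR2 the lowest value on leaving out 1 calf was 0.96, without A2023. In TR3 it ranged from -0.38 to 0.73, and its sign changed with any of 8 calves left out. The log2 ratio of medians was -0.016 for TR1 but 0.20 for TR2 and 0.87 for TR3. The group with the largest fitted value thus had the smallest ratio of medians, but these medians rest on 4 to 8 counts.

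**Figure D2:**
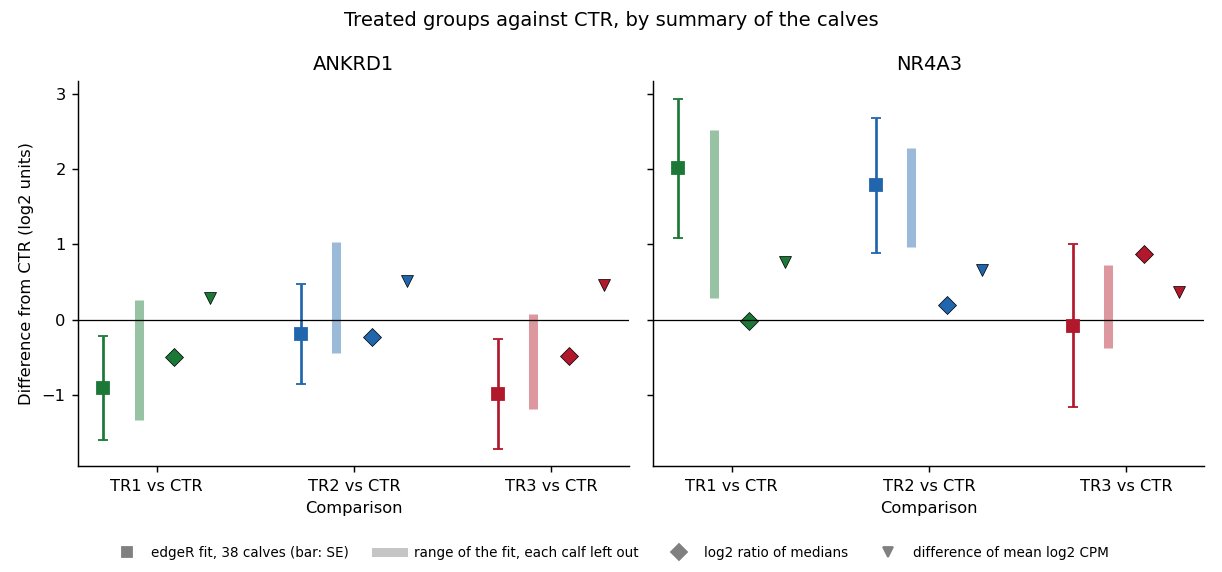
Difference of each treated group from CTR in log2 units for ANKRD1 (left) and NR4A3 (right): squares with bars are edgeR's fit and its standard error, thick bars the range of that fit when each of 38 calves is left out, diamonds the log2 ratio of group medians and triangles the difference of mean log2 CPM. For ANKRD1 the squares and diamonds lie below 0 and the triangles above it, and the TR1 fit of NR4A3 spans 0.28 to 2.53.

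Both genes were among the most variable in the muscle. Within groups, the SD of log2 CPM was 1.75 for ANKRD1 and 1.69 for NR4A3, where the median gene had 0.372. This ranked them 38th and 47th of 12964 genes. Low counts alone raise such a spread. Among genes within 2-fold of its own mean, ANKRD1 ranked 2nd of 475. For NR4A3 the mean is carried by A2047, so a set of genes with the same mean does not match its low counts, and the part of low counts in its spread was not tested.

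Sex and dam age did not enter the choice of the genes and were tested in the same fit. In the female vs. male comparison edgeR called 4 of 12964 genes (0.0309%), and neither ANKRD1 nor NR4A3 was among them. ANKRD1 had 306 ± 181 CPM in females (n = 14, median 298) and 382 ± 532 in males (n = 24, median 208). Females were at -0.18 relative to males on the log2 scale (SE 0.51, adjusted p = 0.974, edgeR), and it was 0.42 without A2088. The spread was wider in males, where all of the 5 lowest calves were found. In CTR the 4 females lay between 289 and 500 CPM, while the 6 males ran from 7.23 to 2445 CPM. The series' own description counts the sexes of the CTR calves differently from the sample labels, which were used here, so the sex of at least 1 CTR calf is in doubt.

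NR4A3 had 2.72 ± 6.26 CPM in females (n = 14, median 0.428) and 0.649 ± 0.938 in males (n = 24, median 0.343). The fitted difference, females minus males, was 1.91 log2 units (SE 0.63, unadjusted p = 0.00421 and adjusted p = 0.501, edgeR), which does not pass over all genes. DESeq2 gave 1.76 with an unadjusted p of 0.0160. The value was 0.20 without A2047, a female, and 7 of 14 females and 13 of 24 males lay above the CTR median.

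Dam age called 0 genes (436 at an unadjusted p under 0.05 with edgeR, 0 adjusted with DESeq2). The slope of ANKRD1 was -0.24 log2 units per year (SE 0.19, adjusted p = 0.993, edgeR). Calves of dams aged 5 years had 518 ± 355 CPM (n = 9, median 476) and those of dams aged 6 years 209 ± 172 (n = 13, median 203). Those of 7 years had 651 ± 1005 (n = 5, median 207), or 203 ± 75.1 without A2088. Those of 8 years had 239 ± 239 (n = 8, median 143). Those of 9 years had 303 ± 238 CPM (n = 3, median 408), above those of 6 and 8 years. NR4A3 had a slope of -0.25 (SE 0.23, adjusted p = 0.993), or 0.26 without A2047, whose dam was 5 years old.

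No relation between ANKRD1 and NR4A3 passed the test, and with 13 of 38 calves at 3 or fewer counts of NR4A3 a weak one would be hard to detect. On log2 CPM over 38 calves, Pearson's r was 0.259 (permutation p = 0.116) and Spearman's rho 0.193 (permutation p = 0.248). Without A2034 and A2088, the calves farthest from the ANKRD1 median, r was 0.313 (permutation p = 0.0629) and rho 0.193. Within CTR, TR1 and TR2 rho was 0.134, 0.317 and 0.413, while within TR3 it was -0.50. Over the 12 relations computed, the lowest adjusted p was 0.345. A2023 and A2047 were among the 5 highest calves for both genes. A2088, the highest for ANKRD1, had 0.627 CPM of NR4A3 (8 counts), and A2068, next but one for ANKRD1, had none.

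The closest relatives of each gene behaved differently. ANKRD2, another MARP of the sarcomere that responds to stretch, ranged from 48.1 CPM through a median of 186 to 3678 CPM. Its highest calves were A2023 (3678 CPM) and A2100 (1919 CPM), both high in ANKRD1, whereas A2088 was 5th of 38, at 3.11-fold the median of the other calves. Its rho with ANKRD1 was 0.66 over 38 calves, rank 20 of 12963 genes. ANKRD23 (DARP), a further titin-binding MARP, was steadier at 218 to 2990 CPM (median 2104), with a rho of 0.41. No MARP relative was called in any comparison. Over all 12964 genes edgeR called 0 in each treatment comparison and for dam age, and 4 for sex, so this says little about the relatives. Among the treatment comparisons ANKRD2 differed most in TR2 vs. CTR, by 0.87 on the log2 scale (SE 0.65, adjusted p = 0.708, edgeR), where the TR2 median of 160 CPM lay below the CTR median of 201 CPM.

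NR4A1 (NUR77) had 20.4 to 264 CPM with a median of 104, and its rho with NR4A3 was 0.24. A2047, the highest NR4A3 calf, was second for NR4A1 with 252 CPM. NR4A2 (NURR1) had 0.307 to 9.34 CPM with a median of 0.914, and its rho with NR4A3 was -0.015. Its highest calf was A2090, also the highest for NR4A1, with 0.403 CPM of NR4A3. Neither relative was called in any comparison, like nearly all of the 12964 genes (0 called except 4 for sex, edgeR). The fitted log2 values in TR1, TR2 and TR3 vs. CTR were 0.05, 0.26 and 0.27 for NR4A1 and -0.30, 0.60 and -0.48 for NR4A2, and A2090 at 9.34 CPM stands behind the TR2 mean of NR4A2 (1.83 ± 2.68 CPM, n = 10, median 1.16).

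The gene whose levels followed ANKRD1 most closely was TNFRSF12A, with a rho of 0.91 over 38 calves, the highest of 12963 genes. It encodes Fn14, the receptor of the cytokine TWEAK, which injured and regenerating muscle expresses. Its levels ran from 4.35 CPM in A2034, the lowest ANKRD1 calf, to 355 CPM in A2023 and 158 CPM in A2088. Within groups the rho was 0.62 to 0.94. Next came DUSP8, a phosphatase of MAP kinases (rho 0.79, 13.7 to 126 CPM), and NEXN, the Z-disc protein nexilin (rho 0.72, 237 to 892 CPM). ENAH, an actin regulator of the Ena/VASP family, and ZNF774, a zinc finger gene, followed at 0.72 and 0.71. In all of TNFRSF12A, DUSP8 and NEXN the 3 highest calves were A2023, A2100 and A2088, which ranked 2nd, 4th and 1st for ANKRD1. For reference, 189 genes (1.46%) had a rho above 0.5 with ANKRD1 and 103 had one below -0.5. At the other end were ZNF775 (-0.59), TSC22D1 (-0.59) and POPDC3 (-0.58). These are correlations over the same libraries, ranked with no p, and only genes with a symbol in the sources used here could be named.

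**Figure D3:**
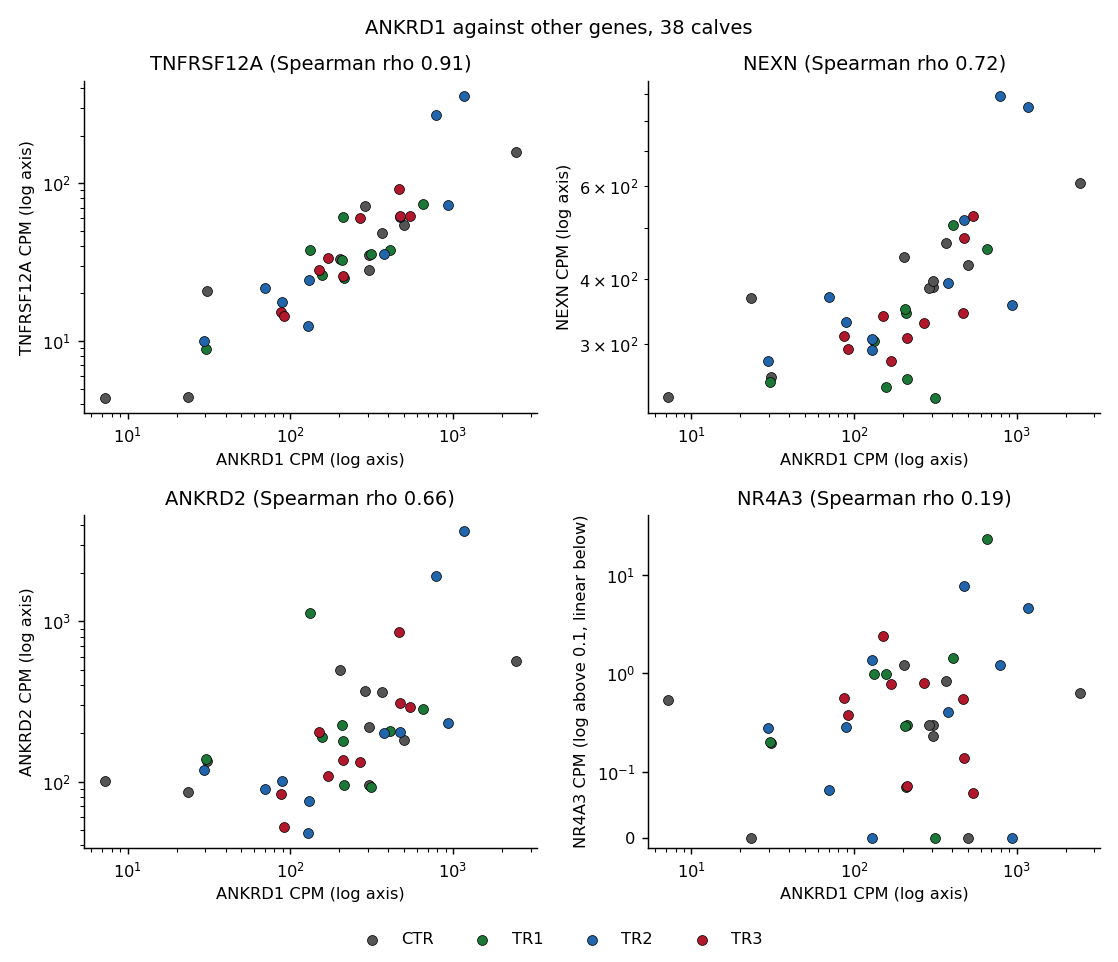
ANKRD1 CPM (log axis) against TNFRSF12A, NEXN and ANKRD2 CPM (log axes) and NR4A3 CPM (log axis above 0.1, linear below), 1 point per calf, coloured by treatment group. TNFRSF12A rises with ANKRD1 over the whole range with a rho of 0.91, and NR4A3 shows no such band at 0.19.

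For NR4A3, with its low counts, the likeness was weaker. The highest rho among genes with a symbol was 0.60 for AVPI1, a gene induced by vasopressin. SMPDL3A, a phosphodiesterase gene, and CCT8, a chaperonin subunit, reached 0.59 each. CREM, which encodes cAMP-responsive modulators such as ICER, had 0.55 with 2.42 to 24.1 CPM. The monocarboxylate transporter SLC16A7 had 0.54. The lowest were NCAPG, GABPA and PDCD4, all at -0.53. In all, 30 genes (0.231%) had a rho above 0.5 with NR4A3 and 32 had one below -0.5.

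Genes of the surrounding pathways were taken from lists, without ANKRD1 and NR4A3. Only genes that the study's tables name could be matched, 115 of 149 on all pathway and marker lists, and because those tables list genes picked on these calves, the counts are no independent evidence. Of the sarcomere and stretch-sensing genes, 8 of 22 had a rho above 0.5 with ANKRD1, with a list median of 0.37 where the median over all genes was -0.0062. These were NEXN, FLNC (filamin C, 0.71), CSRP3 (muscle LIM protein, 0.60), CRYAB (the small heat shock protein of the Z-disc, 0.58), XIRP1 (0.56), SYNPO2 (0.55), XIRP2 (0.52) and KLHL40 (0.52). XIRP1 and XIRP2 encode Xin repeat proteins of the myotendinous junction and of damaged fibres. None of the 22 had a rho above 0.5 with NR4A3, and the list median was 0.023.

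Of the YAP and TEAD genes, 1 of 9 passed 0.5 with ANKRD1, the factor TEAD2 (0.57). CCN2 (CTGF), a classical YAP target, had 0.42 and CCN1 (CYR61) -0.060. Of the immediate early genes, 2 of 19 did, ATF3 (0.59) and JUND (0.58). MYH3, the embryonic myosin of forming fibres, was the only one of 14 regeneration and denervation genes (0.54). None of 16 cAMP and exercise-response genes passed with ANKRD1. CREM was the only list gene above 0.5 with NR4A3, and PPARGC1A (PGC-1 alpha), which exercise and cAMP also induce, had 0.35. MYH6, a cardiac-type and slow myosin, went the other way from ANKRD1, with -0.57.

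**Figure D4:**
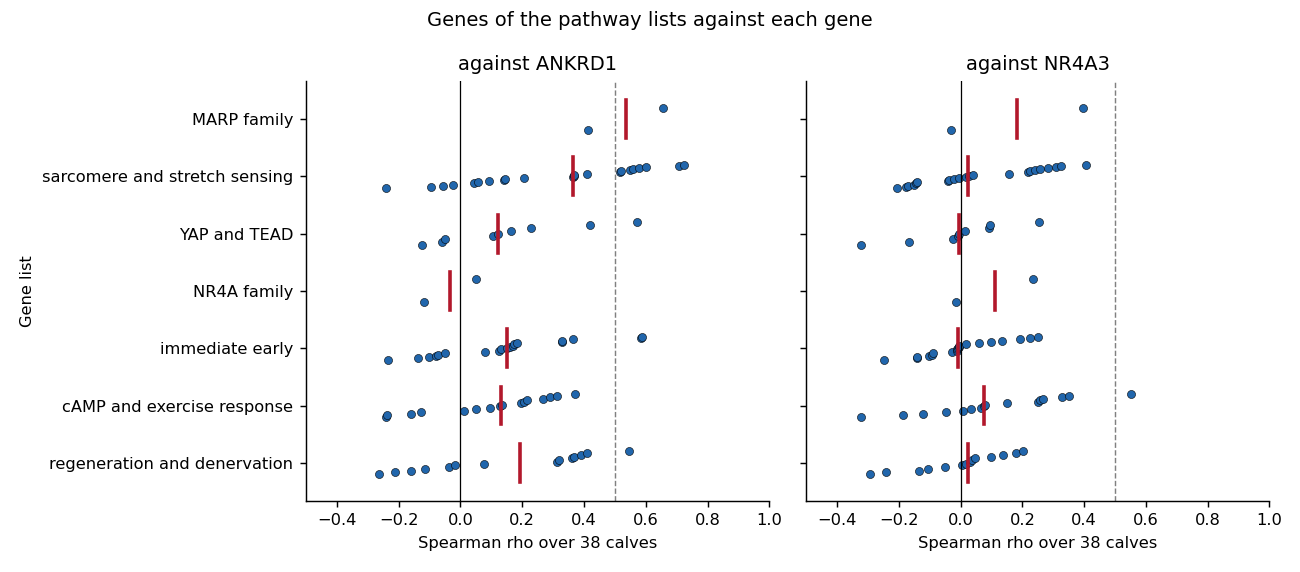
Spearman rho over 38 calves of each gene of 7 pathway lists (1 point per gene) with ANKRD1 (left) and NR4A3 (right), with a red bar for the list median and a dashed line at 0.5. The sarcomere and stretch-sensing genes reach 0.72 with a median of 0.37 against ANKRD1, and have a median of 0.023 against NR4A3.

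In the treatment comparisons no gene of the 7 pathway lists passed 0.05 after adjustment, whether by edgeR or DESeq2. Over all 12964 genes edgeR called 0 as well. At an unadjusted p under 0.05 in TR2 vs. CTR, 6 of 22 sarcomere and stretch-sensing genes were higher and 0 lower. Over all genes 8.34% passed in either direction. Here and below, shares and medians over all genes are not a like background for the lists. The matched genes came from tables that hold genes picked on these group contrasts. XIRP1 had a median of 117 CPM in TR2 and 80.0 in CTR, and 344 ± 479 CPM as the TR2 mean (n = 10). Its fitted difference, which follows the high calves, was 1.79 log2 units (SE 0.48, adjusted p = 0.497, edgeR). KLHL40, a nemaline myopathy gene that stabilizes thin filament proteins, had medians of 166 and 113.5 CPM and a fitted difference of 0.90 (SE 0.32, adjusted p = 0.545). NRAP, a protein of myofibril assembly, had medians of 1204 and 851 CPM and a difference of 0.57 (SE 0.27, adjusted p = 0.589).

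Of the 16 cAMP and exercise-response genes, 6 were higher and 1 lower at that level in TR2. PDE7B, a cAMP phosphodiesterase, had medians of 18.5 CPM in TR2 and 15.1 in CTR, with a fitted difference of 0.53 (SE 0.15, adjusted p = 0.497, edgeR). LPIN1, the phosphatidate phosphatase lipin 1, had medians of 27.1 and 21.1 CPM, a TR2 mean of 62.3 ± 75.8 CPM and a difference of 1.79 (SE 0.53, adjusted p = 0.497). UCP3, the mitochondrial uncoupling protein of muscle, had medians of 81.4 and 47.1 CPM and a difference of 1.17 (SE 0.38, adjusted p = 0.497). These 3 had the smallest p on the list, and for LPIN1 the fit was far above what the medians give. The lower gene was PPARGC1A, with medians of 23.8 CPM in TR2 and 31.5 in CTR. Its fitted difference was -0.60 (SE 0.23, adjusted p = 0.545, edgeR).

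Of the 19 immediate early genes, 5 were higher and 1 lower in TR2 at an unadjusted p under 0.05. CSRNP1 had medians of 6.69 and 5.11 CPM (difference 0.80, SE 0.27, adjusted p = 0.507, edgeR), FOSL2 29.3 and 18.5 CPM (0.80, SE 0.31, adjusted p = 0.545) and MAFF 14.1 and 13.5 CPM (0.88, SE 0.34, adjusted p = 0.545). All 3 encode nuclear factors. The lower gene was SRF, with medians of 204 and 264 CPM (-0.30, SE 0.14, adjusted p = 0.589, edgeR). The list medians in TR2 were 0.23 for the sarcomere genes, 0.65 for the cAMP genes and 0.51 for the immediate early genes, where the median over all genes was 0.0075.

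These TR2 values fell when A2023, A2099 and A2100, the TR2 calves highest in NAMPT, were left out together. The 3 calves were chosen after the data were seen, and 7 TR2 calves remained. The part of the smaller group in the fall was not tested. Without all 3 the list medians were 0.025 for the sarcomere genes, 0.24 for the cAMP genes and 0.34 for the immediate early genes, and 0, 0 and 2 genes had an unadjusted p under 0.05, where 2.82% of all genes did. Without A2100 alone 1 sarcomere gene did (5.34% of all genes), without A2023 alone 2 (6.25%) and without A2099 alone 5 (6.08%). The cAMP list had 6 higher and 1 lower with any 1 of the 3 calves left out, with medians of 0.41 to 0.55. The immediate early list had 3 higher without A2023, 5 without A2099 and 3 without A2100, and 0 lower. The fibroblast markers had a median of -0.41 without the 3 calves, with 2 of 4 lower at that level.

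In TR1 and TR3 the same 3 lists had medians between -0.16 and 0.18. At an unadjusted p under 0.05 in TR1, where 2.55% of all genes passed, 2 of 19 immediate early genes were lower, FOS (-1.66) and FOSB (-1.69), and 1 of 16 cAMP genes was higher, LPIN1 (1.38). In TR3, where 1.35% of all genes passed, BTG2 of the immediate early list (0.52) and CREB1 of the cAMP list (0.40) were higher. None of these passed after adjustment, and the sarcomere list had 0 in either comparison.

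The YAP and TEAD list had 1 of 9 genes at an unadjusted p under 0.05 in TR2 and the regeneration and denervation list 1 of 14, near the 8.34% of all genes, and neither list had any in TR1 or TR3. AMOTL2, a YAP target and regulator, had medians of 10.3 CPM in TR2 and 8.27 in CTR (difference 0.62, SE 0.24, adjusted p = 0.545, edgeR). For the cell cycle inhibitor CDKN1A the fitted difference was 1.14 (SE 0.52, adjusted p = 0.589), but its TR2 median of 35.8 CPM lay below the CTR median of 43.7 CPM.

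Of the marker lists of other cell types, none had a gene past 0.05 after adjustment in TR2 vs. CTR. Of the 5 fibroblast markers 4 could be matched, and all 4 were lower at an unadjusted p under 0.05. Over all genes 8.34% passed in either direction. The list median was -0.53. POSTN (periostin) was at -1.31 (SE 0.35, adjusted p = 0.497, edgeR), COL1A1 at -0.60, PDGFRA at -0.46 and COL3A1 at -0.43. The summed markers ran from 213 to 442 CPM in TR2 (median 369) and from 312 to 836 CPM in CTR (median 462). Of the other marker lists, VWF of endothelium was higher (0.35) and ADIPOQ of adipocytes lower (-2.08, SE 0.99) at the same level. ADIPOQ had medians of 0 CPM in TR2 and 0.28 in CTR, near the limit that a count of 0 allows. The size of its difference is therefore uncertain. The other matched adipocyte markers, PLIN1 (0.052) and FABP4 (-0.70), differed in sign and did not pass that level. The 4 smooth muscle markers had a median of 0.24, with 0 at an unadjusted p under 0.05. The part of these markers in the TR2 values of the pathway lists was not tested.

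A2088 (CTR, male, 13063938 counts, TMM factor 0.977) was 11.6-fold above the median of the other 37 calves for ANKRD1. Of 12956 genes with a median above 0, 41 (0.316%) were at least 4-fold above it in this calf and 115 at least 4-fold below. ANKRD1 was 10th among the 41. From the pathway lists 5 of 86 genes were at least 4-fold above, ANKRD1 included. These were ATF3 (7.09-fold, 67.1 CPM), an immediate early stress factor, MYH3 (7.05-fold, 438 CPM), FOS (4.55-fold, 25.3 CPM) and FOXO1 (4.32-fold, 35.4 CPM), a factor of the fasting and atrophy response. NR4A1 and NR4A2 were not at least 4-fold above. Other calves were higher in each of ATF3, MYH3, FOS and FOXO1. Of 38 calves, A2088 ranked 3rd for ATF3 and MYH3, 7th for FOS and 4th for FOXO1. Of the immediate early list, JUNB (0.484-fold) and GADD45B (0.320-fold) were the lowest of 38 calves in A2088. The summed fibroblast markers were 836 CPM in A2088, the highest in CTR (312 to 836 CPM), and the median over all calves was 436. PTPRC (CD45) of leukocytes was also highest in this calf, at 3.29 CPM, against a median of 0.978 in the others. Over all 38 calves the rho with ANKRD1 ran from -0.42 (PDGFRA) to 0.23 (POSTN) for the 4 fibroblast markers and from -0.42 (PTPRC) to 0.073 for the 5 leukocyte markers, and it was -0.10 and -0.088 for their sums. Their part in the ANKRD1 value was not tested.

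A2047 (TR1, female, 14677438 counts, TMM factor 1.00) was 76.9-fold above the median of the others for NR4A3. In this calf 80 of 12957 genes (0.617%) were at least 4-fold above their medians and 122 at least 4-fold below. NR4A3 was 5th among the 80. Of 86 pathway genes only NR4A3 and FOXO1 (4.37-fold, 35.8 CPM, rank 3 of 38 calves) were at least 4-fold above. COL1A1 of fibroblasts was 4.08-fold above at 457 CPM, the highest of the 38 calves, and POSTN 2.19-fold, while PDGFRA was 1.13-fold and COL3A1 0.881-fold of the median. The adipocyte genes FABP4 and ADIPOQ were second highest, at 8.08 and 1.63 CPM. The summed adipocyte markers were 14.5 CPM (TR1 range 2.05 to 42.5, median over all calves 4.58) and the summed fibroblast markers 745 CPM, the highest in TR1 (176 to 745) and mostly COL1A1. Their part in the NR4A3 value was not tested. Over all 38 calves, the rho of the fibroblast and adipocyte sums with ANKRD1 and NR4A3 lay between -0.10 and 0.14. The largest rho of any summed marker list with NR4A3 was that of the endothelial genes, at -0.45 (VWF -0.46), followed by skeletal muscle at -0.24.

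Of the 4 calves with the most NAMPT, the enzyme of NAD salvage (289 to 635 CPM), A2023 and A2100 were high in ANKRD1 at 1175 and 788 CPM. A2099 and A2052 were not, at 70.1 and 315 CPM. NR4A3 in the same calves was 4.58, 1.22, 0.0721 and 0 CPM.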

How the data were processed

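The members and gene lists were chosen with earlier results of these data known. Libraries were poly-A enriched and strand-specific. The authors mapped reads to ARS-UCD1.2 with STAR 2.7.3a (per the submitters' notes) and deposited raw counts of 27607 Ensembl genes in 38 calves, each sample being a different calf. The strand column kept is not given in the sources used here. By RefSeq ARS-UCD2.0, 0 genes overlapped ANKRD1 (between RPP30 and PCGF5) or NR4A3 (between LOC539818 and STX17).

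From the counts, edgeR 4.0.16 (filterByExpr, TMM, glmQLFTest) fitted dam age, sex and group, and p-values were adjusted by Benjamini-Hochberg over 12964 genes and called at 0.05. log2 CPM had a prior count of 2. DESeq2 1.42.0 gave VST values and an alternative fit. The relation of ANKRD1 to NR4A3 was tested with 100000 permutations, exact for n = 9. Symbols came from the study's supplementary tables (2894 IDs). Genes given with values were both members, their MARP and NR4A relatives, per member the 5 highest and 3 lowest genes by rho, list genes at least 4-fold up in its highest calf, and per list up to 3 with the smallest p. Others (list genes by rho, lower list genes, markers, NAMPT and MYH6) were named after their values were seen. The fit was tried on simulated counts. Tools were R 4.3.3, Python 3.11.15 with scipy 1.17.1 and numpy 2.4.6, pandas 2.3.3, and matplotlib 3.10.9.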

Additional observations from a re-analysis of the deposited data

Results flagged for a closer look

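Within groups of 9 or 10 calves, a highest or lowest value was tested for its gap to the nearest other calf against Dixon's 95% critical value. Chance passes about 1 group in 20 where values are normally distributed, which CPM of these genes is not, and the genes were chosen with their extreme calves known, so the passes are a description. Of 8 ends tested for each gene and scale, ANKRD1 passed at 1 on CPM and 0 on log2 CPM, and NR4A3 at 2 on CPM and 1 on log2 CPM.

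CTR calf A2088 passed for ANKRD1 at 2445 CPM, where the next CTR calf had 500 CPM. TR1 calf A2047 passed for NR4A3 at 23.3 CPM, where the next TR1 calf had 1.43 CPM, and also on the log scale at 4.55 log2 CPM. TR3 calf A2085 passed for NR4A3 at 2.42 CPM (33 counts), where the next TR3 calf had 0.801 CPM.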

How the results depend on the processing

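The alternatives were a fit by DESeq2, plain library sizes, all genes kept without a filter, a model with group alone, dam age entered as a factor, omission of sex, fits of only the groups compared, and other summaries of the calves. Each calf was also left out in turn. NR4A3 in TR3 vs. CTR gave no value with only the groups compared, because the filter then removed it. With all calves kept, the difference of ANKRD1 was negative in all 3 comparisons except by mean log2 CPM and by mean VST, which were positive (0.25 to 0.52). That of NR4A3 was positive in TR1 and TR2 except for the ratio of medians in TR1, at -0.016, and in TR3 it was positive in 5 of 9 alternatives, from -0.24 to 0.87. The sex difference of ANKRD1 was 0.0052 with dam age as a factor (adjusted p = 0.999 from edgeR). That of NR4A3 was 1.71 to 2.06 with all calves kept, with no adjusted p at 0.05.

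Leaving out 1 calf gave ANKRD1 -1.34 to 0.27 in TR1, -0.44 to 1.03 in TR2 and -1.19 to 0.07 in TR3, each highest without A2088. It gave NR4A3 0.28 (without A2047) to 2.53 in TR1, 0.96 to 2.29 in TR2 and -0.38 to 0.73 in TR3. The sex difference ran from -0.39 to 0.42 for ANKRD1 and 0.20 to 2.18 for NR4A3, and the dam age slope from -0.38 to -0.17 and from -0.46 to 0.26 (without A2047). The rho of ANKRD1 with NR4A3 ran from 0.131 to 0.269.

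Called genes were 1 in TR2 with DESeq2, 2 in TR3, 11 for sex and 3 for dam age with no filter, and 1 for dam age with sex left out. With 1 calf left out they were 0 to 1 in TR1, TR2 and for dam age, 0 in TR3 and 4 to 8 for sex. The counts of 1 came without A2075, A2096, A2068, A2033 or A2074 in TR1 and dam age and without A2068 in TR2, and sex had 7 without A2067 and 8 without A2099. The cause was not tested. NR4A3 is limited by depth, since 25 of 38 calves had fewer than 10 counts.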
